A study of Homo sapiens with 15 samples.

Results

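Potassium channel genes were followed here across a series on K562 cells treated with martinostat. The members were all protein-coding genes whose symbol starts with KCN followed by letters and an optional number, as mapped from the gene identifiers of the count table. This rule found 96 members among 19942 protein-coding genes and 60649 genes in all. It uses no measured value. The members were further divided by their counts in untreated cells. A member was silent with at most 3 counts summed over the 3 untreated libraries, expressed with a mean of at least 1 CPM, and low in between, where CPM is the usual count scaled to a common library size. There were 36 silent, 33 low and 27 expressed members.

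Potassium channels let potassium ions leave or enter the cell along their gradient and thereby set the resting membrane potential and end the action potential. A channel is built from pore subunits, which open with voltage, calcium, sodium, G proteins, ATP or acid, and from auxiliary subunits that change how the pore opens or reaches the membrane. Most of the genes are restricted to excitable tissues such as brain, heart and muscle. Blood cells use only some of them, mainly for volume control and for setting the driving force for calcium.

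The series measured mRNA by sequencing in K562, an established line grown from a patient with chronic myeloid leukaemia in blast crisis and carrying the BCR-ABL fusion gene. Martinostat is a hydroxamate inhibitor of histone deacetylases (HDACs), the enzymes that take acetyl groups off histones. The 5 groups were cells left untreated and cells kept for 24 h with martinostat at a dose of 0.15, 0.25, 0.5 or 1 µM, with 3 independent biological replicates each and 15 libraries in all. All groups are the same cell line, so they describe 1 line in culture and not patient cells.

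Library totals ranged from 23755510 to 32805574 counts. Replicate 3 at 0.25 µM and replicate 3 at 0.5 µM stood apart from the rest, with scaling factors of 1.28 and 1.22 against 0.784 to 1.11 in the other 13 libraries, and the member counts were also taken without both. Of 8 markers fixed for K562, 7 had means of 116 to 1228 CPM in untreated cells and the embryonic globin HBE1 was near 0 at 0.170 CPM. The summed level of this list was 3153 to 3545 CPM in the untreated libraries and 842 to 973 CPM at 1 µM. Over the same libraries the sum of the 3 neuron markers went from 1.04 to 1.43 CPM up to 68.3 to 95.9 CPM, most of it SYN1. That of the 3 fibroblast markers went from 21.9 to 25.4 CPM up to 301 to 486 CPM, with mean levels of COL1A1 going from 4.36 to 398 CPM, COL1A2 from 18.9 to 9.70 and DCN from 0.132 to 0.326. The epithelium sum went from 818 to 877 CPM up to 2595 to 4533, with KRT8 at 697 and 3248 and EPCAM at 141 and 20.5 CPM. The monocyte sum went from 7.22 to 9.27 up to 24.6 to 32.6 CPM, the B cell sum from 2.28 to 4.70 up to 8.27 to 8.98, and the muscle sum from 90.1 to 106 down to 45.0 to 57.6. The T cell sum was at 3.51 to 4.62 and 1.85 to 4.32 CPM, which overlapped. In between it was higher, at 15.6 to 22.6 CPM with 0.15 µM and 10.4 to 16.1 with 0.25 µM. SNAP25, CD2, MS4A1 and MYH7 were at 0 in untreated cells. The part of these shifts in the values of the channel genes was not tested. In such bulk RNA, fewer cells that express a gene and less RNA of that gene per cell cannot be told apart.

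In untreated cells the family was dominated by 1 gene. KCNH2 (hERG, the pore subunit of the rapid delayed rectifier current of the heart; chr7:150944961-150978321, minus strand) took 76.0 to 79.2% of all CPM of the 96 members. Compared per length, as CPM per kilobase of exon, KCNH2 stood at 161 ± 13.0 (SD, n = 3, as for all levels given with ±). The acid-sensitive background channel KCNK5 followed with 25.7 ± 0.858 CPM per kilobase. Well below both were KCNH4, a voltage-gated channel of the ELK group, with 5.65 ± 0.463 and KCNK1, a background channel, with 4.97 ± 0.538, which overlapped in their means and SDs. On this scale KCNH2 made up 70.3% of the family.

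KCNH2 fell after martinostat. Its counts were 25912, 30638 and 31788 in the untreated libraries and 3109, 2431 and 3583 at 1 µM. On the CPM scale KCNH2 was at 1059.6, 1183 and 1244 in untreated cells, 745, 637 and 676 at 0.15 µM, 275, 295 and 263 at 0.25 µM, 91.4, 116 and 89.6 at 0.5 µM and 110.3, 84.0 and 125 at 1 µM. The libraries of each dose up to 0.5 µM lay below all those of the dose before it, and those of 0.5 and 1 µM overlapped. The decrease was 1.70-fold at 0.15 µM (log2 fold change -0.76 ± 0.16, adjusted p = 0.000669; ± SE here and below, from edgeR by its quasi-likelihood test, with p-values after Benjamini-Hochberg adjustment over 23711 genes) and 10.9-fold at 1 µM (log2 fold change -3.45 ± 0.18, adjusted p = 6.33e-12).

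At 1 µM the level of KCNH2 per length was 14.8 ± 2.88 CPM per kilobase. KCNN1, a small-conductance calcium-activated channel, was at 8.78 ± 0.778, KCNK5 at 6.38 ± 0.769 and KCNH3, of the ELK group like KCNH4, at 5.70 ± 0.458. KCNK5 and KCNH3 did not differ beyond their spread. The share of KCNH2 in the family was then 12.3% per length and 12.4 to 14.9% of the summed CPM. The sum itself went from 1393 to 1587 CPM in untreated libraries to 675 to 837 CPM at 1 µM, while the number of members with at least 1 count in a library went from 56 to 60 up to 80 to 86. Members with a mean of at least 1 CPM numbered 27 in untreated cells and 39, 41, 43 and 46 at the rising doses. The same numbers over all genes are not given here, so these gains are not shown to be particular to the family. Of the silent protein-coding genes tested, 96.7% were higher at 1 µM.

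**Figure D1:**
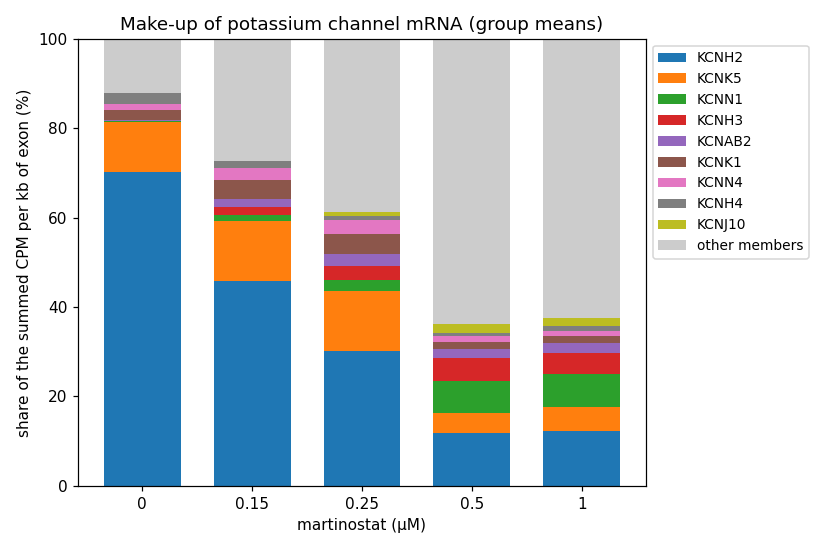
Share of each potassium channel gene in the summed CPM per kilobase of exon of all 96 members (y axis, percent of the group mean) at each martinostat dose (x axis, µM, 0 for untreated). Each colour is 1 gene and grey all remaining members together. KCNH2 shrinks from 70.3% in untreated cells to 12.3% at 1 µM while the grey share grows.

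More members were higher than lower at every dose. Of the 96 members, 69 had enough counts to be tested. Against untreated cells at 0.15 µM, 36 members were higher and 4 lower, where 31.9% of all genes tested were higher and 19.4% lower. At 0.25 µM, 44 were higher and 6 lower (37.4% and 24.8% of all genes). At 0.5 µM, 42 were higher and 12 lower (39.4% and 27.6%), and at 1 µM 44 were higher and 11 lower (38.8% and 27.5%). Of the tested members, this is 52.2, 63.8, 60.9 and 63.8% higher and 5.80, 8.70, 17.4 and 15.9% lower at the rising doses. The median log2 fold change of the members tested was 1.44 at 0.15 µM and 2.04 at 1 µM, and that of all genes tested was 0.28 and 0.32. With the 12 members that had no count in untreated cells held at the lower bound set by 3 counts per library, the members' medians were 0.97 and 2.00. Over the 27 expressed members, each of which passed the filter on its untreated libraries, the medians were 0.61 and 0.28, where those of expressed protein-coding genes were -0.24 and -0.36. With at least 10 counts in every library, which 27 members had, they were 0.83 and 0.71, and those of all genes so kept 0.04 and 0.05.

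The counts are tied to how members entered the test. Of the 69, 31 passed the filter on low counts in untreated cells alone and 38 passed only through treated groups, so that those 38 could only enter the test by being higher there, and their count is no finding. Their single folds and p-values against untreated cells, given below, are likewise a description. All 27 expressed members passed on their untreated libraries. Among these, 11 were higher and 4 lower at 0.15 µM, where 21.0% of the expressed protein-coding genes were higher and 37.0% lower. At 0.25 µM they were 12 and 6 (21.9% and 45.6%), at 0.5 µM 10 and 12 (26.1% and 47.1%), and with the highest dose 10 and 11 (25.9% and 46.7%). Every class, the expressed one included, is cut on the untreated libraries, so its differences from untreated cells are a description. The classes below the expressed one rest on low untreated counts. Of the 26 low members tested, 13, 17, 16 and 18 were higher at the rising doses (63.0, 70.9, 68.3 and 68.5% of low protein-coding genes) and 0 lower (0.218, 0.617, 1.63 and 2.03%). Of the 16 silent ones, 12, 15, 16 and 16 were higher (81.0, 95.7, 96.3 and 96.7% of silent protein-coding genes) and 0 lower (0.0% at each dose). Scaling by library totals instead of the trimmed mean of M values moved the median of all genes at 1 µM from 0.32 to 0.67. It gave 41 members higher and 1 lower for 0.15 µM, 47 and 4 for 0.25 µM, 42 and 10 for 0.5 µM, and 47 and 9 for 1 µM. Without replicate 3 at 0.25 and 0.5 µM, 43 were higher and 5 lower at 0.25 µM, and 43 higher and 12 lower at 0.5 µM.

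Higher at all 4 doses were 29 members (24.6% of all genes tested), among them KCNA2, KCNA7, KCNAB2, KCNC1, KCNC4, KCND1, KCND2, KCND3, KCNG1, KCNG4, KCNH3, KCNH6, KCNH8, KCNJ6, KCNJ9, KCNJ10, KCNJ11, KCNJ12, KCNK2, KCNK9, KCNK13, KCNK15, KCNMB4, KCNN1, KCNN3, KCNQ1 and KCNS3. Lower at all 4 doses were 4 members (15.1% of all genes), among them KCNH2, KCNH4 and KCNQ5. All 4 are voltage-gated pore subunits that untreated cells expressed. In another 8 tested members no dose passed the test, namely KCNAB1, KCNAB3, KCNE1, KCNG2, KCNIP2, KCNJ13, KCNMB2 and KCNRG.

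**Figure D2:**
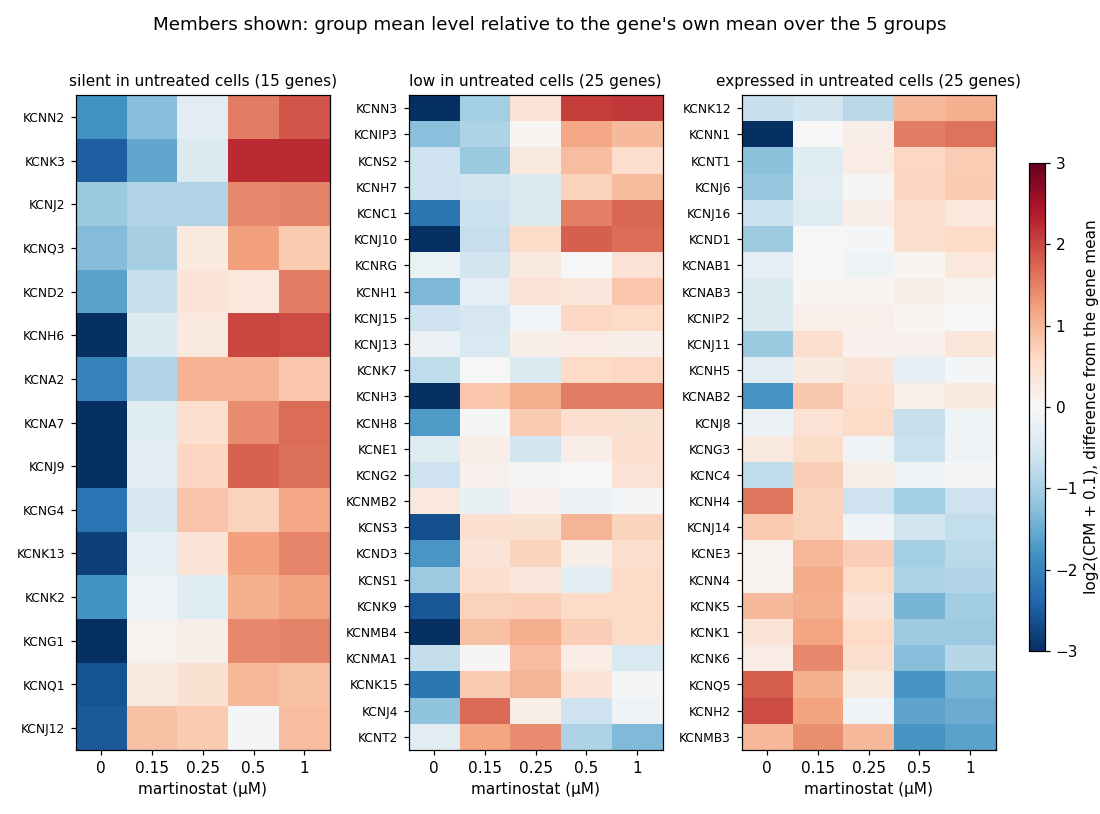
Group mean level of 65 of the 69 tested members (rows) at each martinostat dose (columns, µM, 0 for untreated), as the difference of log2(CPM + 0.1) from the gene's own mean over the 5 groups. Colour ends at 3 in either direction and rows are ordered by the change from 0.15 to 1 µM within the 15 silent, 25 low and 25 expressed members shown. Blue at the left marks most silent and low members, and the lower rows of the expressed block turn from red to blue.

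Voltage-gated pore subunits were the largest group, with 30 members, of which untreated cells left 15 silent and expressed 8. Of 22 tested, 13 rose and 4 fell with 0.15 µM, and 17 rose and 4 fell with 1 µM (of all genes tested, 31.9% and 19.4% at 0.15 µM and 38.8% and 27.5% at 1 µM). Of these 22, 13 had passed the filter only through treated groups. The KCNH genes went both ways. KCNH4 fell from 22.6, 19.4 and 22.2 CPM in the untreated libraries to 5.36, 3.73 and 4.39 CPM at 1 µM, without overlap (4.76-fold lower, log2 fold change -2.25 ± 0.21, adjusted p = 2.44e-08). KCNH3 was nearly absent from untreated cells with 8, 3 and 2 counts, and had 504, 396 and 456 counts at 0.15 µM and 704, 694 and 801 at 1 µM. The libraries of untreated and treated cells were far apart. Its level rose 90.9-fold at 0.15 µM (log2 fold change 6.49 ± 0.37, adjusted p = 8.08e-11) and 148-fold at 1 µM (log2 fold change 7.19 ± 0.37, adjusted p = 6.31e-12).

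KCNH6 encodes ERG2, a close relative of the hERG channel that KCNH2 encodes, and it moved against KCNH2. It had 0, 2 and 1 counts in untreated cells, which made it silent. The treated libraries held 53, 34 and 32 counts at 0.15 µM, 86, 56 and 80 at 0.25 µM, 207, 159 and 289 at 0.5 µM and 210, 193 and 245 at 1 µM. In CPM the untreated libraries were at 0, 0.0772 and 0.0391 and those of 1 µM at 7.45, 6.67 and 8.54, and all treated libraries lay above all untreated ones. The ratio of summed counts at 1 µM to untreated cells, in CPM, was 191, with an exact 95% interval of 65.1 to 929 that covers counting error only (adjusted p = 9.07e-11). Like all 16 silent members tested, KCNH6 entered the test only through treated groups, so this rise is a description. From 0.15 to 1 µM it rose further (log2 fold change 2.44 ± 0.29, adjusted p = 1.76e-06). With 7.55 ± 0.943 CPM it stayed well below KCNH2, at 106 ± 20.8 CPM in the same libraries. KCNH5, an EAG channel, was at 1.54 ± 0.0598 CPM in untreated cells and 1.87 ± 0.501 at 1 µM, and passed the test at 0.25 µM only (log2 fold change 0.75 ± 0.30, adjusted p = 0.0350). This call was lost without untreated replicate 1, 2 or 3 (log2 fold change 0.71, 0.77 and 0.76) or 0.25 µM replicate 2 or 3 (0.69 and 0.60), and no step between doses was called for it.

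KCNQ5, a subunit of the M-current of neurons, fell from 15.2, 15.5 and 15.8 CPM to 1.53, 1.04 and 2.16 CPM (9.83-fold lower, log2 fold change -3.29 ± 0.24, adjusted p = 8.98e-10). The 1 µM libraries lay below all those of untreated cells and of 0.15 µM.

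At 0.15 µM the falls of KCNQ5 and KCNH4 depended on the scaling. With library totals as the only scaling, KCNQ5 at -0.41 and KCNH4 at -0.59 were no longer called. KCNH2 kept its call at -0.39 or below under all 25 alternatives.

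KCNC1 and KCNC4, for fast-opening channels of fast-spiking neurons, both rose. KCNC1 rose from 0.593 ± 0.0760 to 10.3 ± 2.50 CPM (log2 fold change 4.11 ± 0.31, adjusted p = 1.09e-09). KCNC4 was highest at 0.15 µM, with 41.8, 41.9 and 39.9 CPM against 13.9, 14.4 and 14.8 in untreated cells, and stood at 24.1, 19.6 and 28.2 CPM at 1 µM. It was called higher at all 4 doses and lower at 1 µM than at 0.15 µM (log2 fold change -0.78 ± 0.17, adjusted p = 0.000763).

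KCND1, for an A-type channel, rose from 2.36 ± 0.844 to 4.98 ± 0.821 CPM at 0.15 µM and 7.58 ± 0.407 CPM at 1 µM (log2 fold change 1.68 ± 0.27, adjusted p = 2.08e-05). Of the 8 KCNA genes, for Shaker-type channels, all were silent in untreated cells and KCNA2 and KCNA7 were tested and higher.

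**Figure D3:**
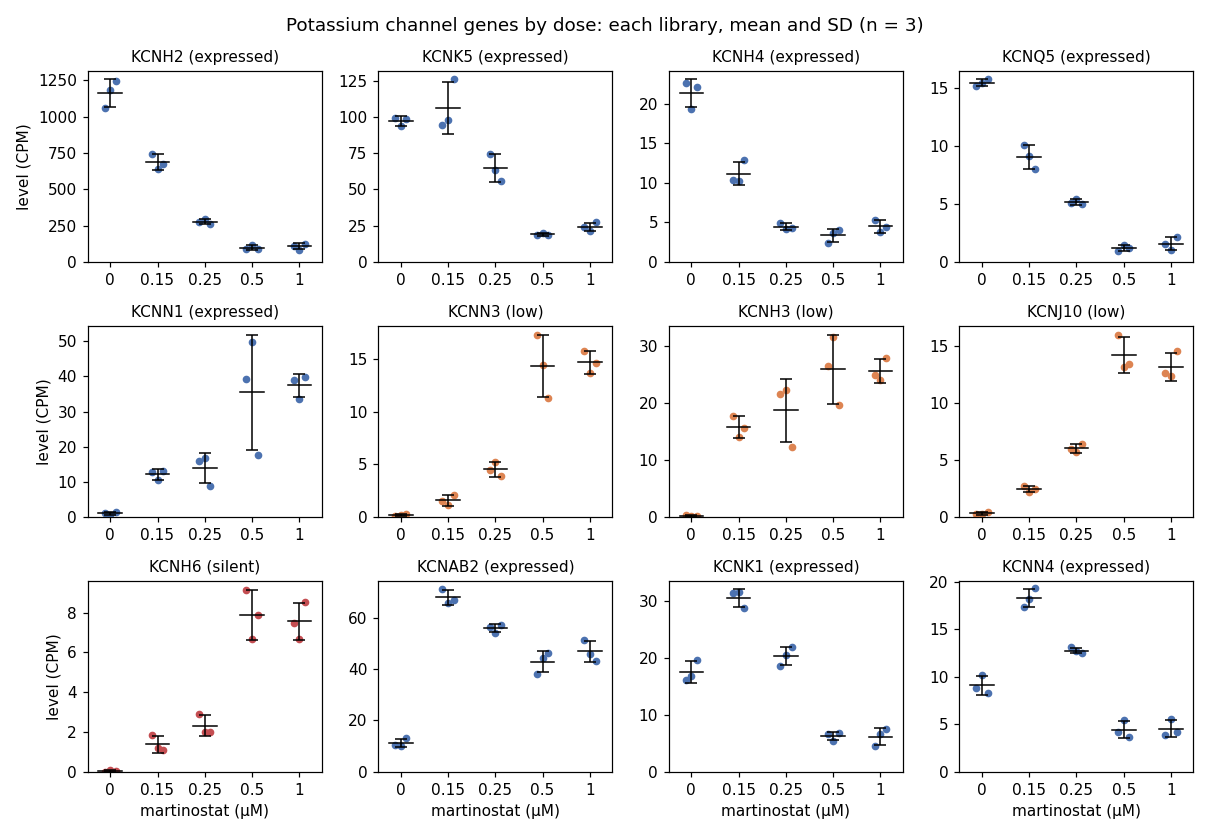
Level (CPM, linear axes starting at 0) of 12 potassium channel genes in each library (points) at each martinostat dose (x axis, µM, 0 for untreated), with the mean and SD of the 3 libraries as bars. The class in untreated cells is in each title and colour. The top row is lower and the middle row and KCNH6 are higher at 1 µM than in untreated cells, and KCNAB2, KCNK1 and KCNN4 peak at 0.15 µM.

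The modifier subunits (KCNF, KCNG, KCNS and KCNV) form no channel alone and alter the current of other voltage-gated subunits. Of 10 members, 7 were tested, and 4 rose and 0 fell with either 0.15 or 1 µM (31.9% and 19.4%, and 38.8% and 27.5%, of all genes). All but 1 of the 7 had entered the test only through treated groups. KCNG3 was the only one that untreated cells expressed, at 3.68, 2.32 and 2.19 CPM. It was at 1.32, 1.05 and 1.79 CPM at 0.5 µM, which was called lower (log2 fold change -0.96 ± 0.31, adjusted p = 0.0106; not called without untreated replicate 1, at -0.68, or 0.5 µM replicate 2, at -0.79, nor with library totals, at -0.55), and at 2.13, 1.66 and 2.41 CPM at 1 µM, which overlapped untreated cells and was not called (adjusted p = 0.250). The 6 other tested modifiers stayed under 5 CPM in their group means.

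Among the pore subunits opened by calcium or sodium, 7 of 8 were tested. At 0.25 µM all 7 were higher (37.4% of all genes), and at 1 µM 4 were higher and 1 lower (38.8% and 27.5%). Among the 7, KCNN4 at 0.25 µM (log2 fold change 0.49, adjusted p = 0.0292) lost its call under 5 alternatives. These included leaving out untreated replicate 1 or 3 (0.47 and 0.42) or 0.25 µM replicate 1 or 2 (0.47 and 0.49). Of the 7, 3 had passed only through treated groups. The SK channel genes KCNN1, KCNN2 and KCNN3 were all higher from 0.25 µM on, and all higher at 1 µM than at 0.15 µM. KCNN1 was at 1.23, 0.618 and 1.41 CPM in untreated cells, 12.7, 10.4 and 13.2 at 0.15 µM, 15.9, 16.7 and 8.89 at 0.25 µM, 39.2, 49.7 and 17.5 at 0.5 µM and 38.9, 33.7 and 39.9 at 1 µM (34.5-fold higher, log2 fold change 5.11 ± 0.40, adjusted p = 1.12e-08). All treated libraries lay above the untreated ones, and replicate 3 was the lowest at 0.25 and 0.5 µM. KCNN3 rose from 0.0818, 0.154 and 0.313 to 15.8, 13.6 and 14.6 CPM (80.0-fold, log2 fold change 6.28 ± 0.36, adjusted p = 2.77e-11).

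KCNN2 had no count in untreated cells and 0, 0 and 4 counts at 0.15 µM. At 0.5 µM it had 21, 29 and 23 and at 1 µM 24, 41 and 39 counts, without overlap with either. It was the member with the largest rise from 0.15 to 1 µM (log2 fold change 4.58 ± 0.80, adjusted p = 0.000181), from a base of 4 counts in all. KCNN4 is the intermediate-conductance channel of red cells and lymphocytes, where it takes part in volume loss. It rose first and then fell below its start, with 8.87, 10.2 and 8.26 CPM in untreated libraries, 17.4, 18.2 and 19.3 at 0.15 µM, 13.1, 12.7 and 12.5 at 0.25 µM, 4.24, 5.44 and 3.64 at 0.5 µM and 3.83, 5.56 and 4.25 at 1 µM. The groups did not overlap from untreated cells to 0.15 µM, nor from there to 1 µM. KCNN4 was 2.01-fold higher at 0.15 µM (log2 fold change 1.01 ± 0.19, adjusted p = 0.000182) and 2.00-fold lower at 1 µM (log2 fold change -1.0008 ± 0.19, adjusted p = 0.000149).

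The sodium-activated channel genes KCNT1 and KCNT2 parted. KCNT1 went from 1.43, 0.772 and 0.900 CPM in untreated cells to 5.50, 3.52 and 4.22 at 1 µM (log2 fold change 2.09 ± 0.42, adjusted p = 0.000262). Its step from 0.15 to 1 µM (log2 fold change 1.15 ± 0.40, adjusted p = 0.0251) was no longer called without 0.15 µM replicate 1 or 2 (log2 fold change 0.95 and 1.11) or without 1 µM replicate 1 (0.96). KCNT2 rose from 0.777, 0.502 and 0.939 CPM to 2.28, 2.47 and 2.24 at 0.15 µM (log2 fold change 1.65 ± 0.50, adjusted p = 0.01005) and was at 0.0710, 0.276 and 0.628 CPM at 1 µM. Against untreated cells this was not called (log2 fold change -1.17, adjusted p = 0.0773; with the replicate number as a block -1.27, adjusted p = 0.0498; called also without 1 µM replicate 3, at -2.05), while the fall from 0.15 µM was (7.17-fold lower, log2 fold change -2.82 ± 0.54, adjusted p = 0.000311).

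The inward rectifiers (KCNJ) pass potassium more easily into the cell than out and hold the resting potential. Of 16 members, 12 were tested. With 0.15 µM 6 rose and 0 fell (31.9% and 19.4% of all genes), and with 1 µM 9 rose and 1 fell (38.8% and 27.5%). Of the 12, 6 had passed only through treated groups. KCNJ10, the glial channel Kir4.1, rose at each step up to 0.5 µM, from 0.245, 0.232 and 0.430 CPM in untreated libraries through 2.74, 2.22 and 2.41 and 5.93, 5.69 and 6.44 to 16.0, 13.2 and 13.4, with 12.6, 12.3 and 14.5 at 1 µM (43.5-fold, log2 fold change 5.42 ± 0.26, adjusted p = 2.72e-12). These groups did not overlap until 0.5 µM, where they met those of 1 µM. KCNJ16, which joins KCNJ10 in a shared channel, was already expressed at 2.56 ± 0.435 CPM and reached 5.06 ± 0.344 CPM (log2 fold change 0.98 ± 0.25, adjusted p = 0.00232). Its step from 0.15 to 1 µM (log2 fold change 0.71 ± 0.25, adjusted p = 0.0263) lost its call without 0.15 µM replicate 3 (log2 fold change 0.58) or 1 µM replicate 1 or 2 (0.67 and 0.71).

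KCNJ11 and KCNJ8 encode the pores of ATP-sensitive channels, which close when the cell is rich in ATP. KCNJ11 was at 5.48, 6.45 and 6.65 CPM in untreated cells, 14.8, 17.9 and 24.5 at 0.15 µM and 18.2, 14.9 and 18.7 at 1 µM, higher at each dose without overlap (2.78-fold at 1 µM, log2 fold change 1.48 ± 0.23, adjusted p = 1.23e-05). KCNJ8 was at 1.20 ± 0.188 CPM in untreated cells and 1.25 ± 0.183 at 1 µM, with no call there (adjusted p = 0.887) and with one at 0.25 µM (log2 fold change 0.81 ± 0.32, adjusted p = 0.0351), which was lost without untreated replicate 1 or 2 (log2 fold change 0.69 and 0.86) or 0.25 µM replicate 2 or 3 (0.76 and 0.79). ABCC8, the sulphonylurea receptor that completes the KCNJ11 channel, rose as well, from 0.0545 ± 0.0944 to 3.21 ± 0.0847 CPM at 1 µM (log2 fold change 5.81 ± 0.69, adjusted p = 5.28e-07).

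The G protein-gated channel genes KCNJ6 and KCNJ9 both rose. KCNJ9 had no count in untreated cells, 26, 24 and 35 counts at 0.15 µM and 101, 90 and 166 at 1 µM, at least 35.1-fold above the floor at 4.16 ± 1.43 CPM. KCNJ6 went from 1.80, 1.24 and 1.37 CPM to 2.07, 3.67 and 2.24 at 0.15 µM and 5.71, 5.04 and 6.83 at 1 µM (log2 fold change 2.00 ± 0.27, adjusted p = 3.44e-06). At 0.15 µM its rise (log2 fold change 0.86 ± 0.28, adjusted p = 0.0145) was not called without untreated replicate 2 (log2 fold change 0.75) or without 0.15 µM replicate 2 (0.55). KCNJ2, for the classical inward rectifier of heart and muscle, had 2, 0 and 0 counts in untreated cells, 0, 4 and 0 at 0.15 µM and 2, 0 and 3 at 0.25 µM, and reached 0.816, 0.863 and 0.349 CPM at 1 µM (log2 fold change 3.73 ± 1.05, adjusted p = 0.00722 from 0.15 µM). KCNJ14 was the only inward rectifier called lower at 1 µM, from 4.09, 3.51 and 4.07 to 1.74, 0.691 and 1.43 CPM (log2 fold change -1.59 ± 0.32, adjusted p = 0.000269). Exons of other genes, among them GRWD1, overlap its own. Those of the opposite strand cover 23.5% of its exon bases and those of the same strand 9.50%.

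The KCNK genes encode the background channels that carry the leak of potassium at rest. Of 15 members, 10 were tested, and at 1 µM each of them was called, 7 higher and 3 lower (38.8% and 27.5% of all genes). At 0.15 µM 6 were higher and 0 lower (31.9% and 19.4%). Of the 10, 6 had entered only through treated groups. KCNK5 (TASK-2) was the second most abundant member of the family in untreated cells, at 99.4, 93.5 and 98.7 CPM. It held 94.1, 97.6 and 126 CPM at 0.15 µM, where the groups overlapped and no change was called (adjusted p = 0.497; called higher with library totals, at 0.48, with TMM from genes of at least 10 CPM, at 0.38, and by limma on log2(FPKM + 1), at 0.33). It then fell to 74.8, 63.5 and 55.6 CPM at 0.25 µM (log2 fold change -0.59, and -0.07 and not called with library totals), 18.2, 19.9 and 18.8 at 0.5 µM and 23.7, 21.4 and 27.2 at 1 µM, below all untreated libraries (4.03-fold lower at 1 µM, log2 fold change -2.01 ± 0.15, adjusted p = 1.13e-09).

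KCNK1 and KCNK6, for the weak inward rectifiers TWIK-1 and TWIK-2, rose at 0.15 µM and fell below untreated cells at 1 µM. KCNK1 was at 16.2, 16.7 and 19.7 CPM in untreated libraries, 31.4, 31.5 and 28.7 at 0.15 µM and 4.54, 6.56 and 7.46 at 1 µM, with no overlap between any of the 3 groups. The changes were 1.74-fold up (log2 fold change 0.80 ± 0.17, adjusted p = 0.000815) and 2.83-fold down (log2 fold change -1.50 ± 0.18, adjusted p = 6.50e-07). KCNK6 was at 4.62, 3.51 and 3.76, 6.61, 7.80 and 13.6 and 1.42, 1.90 and 2.09 CPM in the same groups (log2 fold change 1.24 ± 0.40, adjusted p = 0.0157 and log2 fold change -1.13 ± 0.42, adjusted p = 0.0245). The rise of KCNK6 lost its call without untreated replicate 2 or 3 (log2 fold change 1.16 and 1.20) or 0.15 µM replicate 3 (0.86), and its fall without untreated replicate 1 (-1.01) or 1 µM replicate 1 or 2 (-0.99 and -1.17), or with library totals (-0.78).

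KCNK3 (TASK-1, an acid-sensitive channel of heart, lung vessels and brain stem) was silent in untreated cells. It had 2, 0 and 0 counts in untreated libraries, 6, 2 and 4 at 0.15 µM, 16, 6 and 21 at 0.25 µM, 70, 113 and 74 at 0.5 µM and 77, 82 and 120 at 1 µM. At 0.15 µM the change was not called (adjusted p = 0.0655), but it was with library totals (log2 fold change 2.53), with TMM from genes of at least 10 CPM (2.44), and without untreated replicate 1 (5.06) or 0.15 µM replicate 2 (2.53). The libraries of 0.5 and 1 µM lay far above those of all lower doses. From 0.15 to 1 µM KCNK3 was 23.3-fold higher (log2 fold change 4.50 ± 0.55, adjusted p = 2.24e-06). KCNK12, for a halothane-inhibited channel that is poorly active alone, was at 4.50, 4.17 and 4.66 CPM in untreated cells and 5.06, 5.86 and 3.65 at 0.15 µM, which overlapped, and at 15.6, 14.7 and 15.1 CPM at 1 µM (3.41-fold, log2 fold change 1.77 ± 0.35, adjusted p = 0.000270).

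The promoters of 5 of these genes are given to show what the sequence before the start looked like in members that fell (KCNH2, KCNK5), in silent members that rose (KCNH6, KCNK3) and in a silent one that stayed near 0 (KCNK16, 2 counts in all 15 libraries). Each is the 250 bases before the start of the gene in RefSeq on GRCh38.p14, written along the gene's strand. They lie at chr7:150978322-150978571 (minus strand), chr6:39229476-39229725 (minus strand), chr17:63523108-63523357 (plus strand), chr2:26692472-26692721 (plus strand) and chr6:39322969-39323218 (minus strand). Capitals mark GGGCGG, the GC box, or TTCAGCACC, the left part of the RE1 element, on either strand, with overlapping matches run together.
KCNH2: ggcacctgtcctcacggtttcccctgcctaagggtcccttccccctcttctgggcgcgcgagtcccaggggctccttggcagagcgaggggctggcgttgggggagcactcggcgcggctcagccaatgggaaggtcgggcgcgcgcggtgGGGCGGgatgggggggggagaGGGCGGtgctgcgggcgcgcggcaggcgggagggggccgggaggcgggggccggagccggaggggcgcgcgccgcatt
KCNK5: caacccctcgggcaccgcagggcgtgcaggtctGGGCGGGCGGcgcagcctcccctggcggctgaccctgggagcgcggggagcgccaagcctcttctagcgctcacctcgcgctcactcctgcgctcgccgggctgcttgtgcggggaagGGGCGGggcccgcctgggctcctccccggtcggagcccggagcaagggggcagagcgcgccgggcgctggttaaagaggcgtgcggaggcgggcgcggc
KCNH6: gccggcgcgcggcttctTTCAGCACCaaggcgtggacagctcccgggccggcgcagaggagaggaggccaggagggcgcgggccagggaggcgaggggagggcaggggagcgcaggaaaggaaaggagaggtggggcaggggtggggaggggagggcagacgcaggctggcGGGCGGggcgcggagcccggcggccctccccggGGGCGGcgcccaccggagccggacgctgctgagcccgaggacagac
KCNK3: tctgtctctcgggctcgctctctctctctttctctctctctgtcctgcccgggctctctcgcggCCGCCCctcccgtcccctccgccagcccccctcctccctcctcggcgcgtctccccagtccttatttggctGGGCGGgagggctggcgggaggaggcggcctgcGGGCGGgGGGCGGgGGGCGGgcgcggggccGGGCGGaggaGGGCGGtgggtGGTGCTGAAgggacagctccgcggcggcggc
KCNK16: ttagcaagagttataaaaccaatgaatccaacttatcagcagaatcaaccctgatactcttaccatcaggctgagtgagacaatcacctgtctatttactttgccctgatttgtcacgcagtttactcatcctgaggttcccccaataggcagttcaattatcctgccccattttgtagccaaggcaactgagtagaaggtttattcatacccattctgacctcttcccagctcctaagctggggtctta
The first 4 hold 26 to 31 CpG pairs and 76.4 to 77.6% G and C, and KCNK16, with 1 CpG pair, 43.6%.

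Of the 96 members, 72 had a promoter in the table. GGGCGG, searched on both strands, was in 55.6% of them and in 56.7% of the 15333 promoters of protein-coding genes. TATAAA was in 8.33% and 9.22%. TTCAGCACC was searched after the KCNH6 sequence had been read, and was in KCNH6 and KCNK3 alone, 2.78% of members against 0.287% of protein-coding promoters. Both also hold GGACAG, the letters of the right part of the RE1 element. The parts were counted anywhere in a promoter on either strand, with no order, spacing or common strand required. So counted, both parts were found in 0.0978% of those promoters. In KCNK3 the TTCAGCACC match lies on the opposite strand to the GGACAG next to it, and in KCNH6 the spacing differs from that in KCNK3. Whether the parts form an RE1 element was not tested. GGACAG is left in lower case above. A match is a description of the letters and not a bound site.

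CpG pairs in these promoters were counted by class and call. In 10 silent members called higher at 1 µM the median was 21 CpG pairs in 250 bases, and 7 of them had at least 10. In 17 silent members not tested the median was 7, and 5 had at least 10. These had too few counts for the test, which does not mean that they did not rise. Without the filter on low counts, KCNA4 and KCNF1 of this group, with 30 and 20 CpG pairs, were called higher at 1 µM. The median was 19 in 22 expressed members and 17 over all protein-coding genes, of which 69.3% had at least 10. Expressed members that fell (median 17.5, n = 10) and those that rose (median 25, n = 7) overlapped widely. These are descriptions of genes, which are not replicates, and no test was made.

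**Figure D4:**
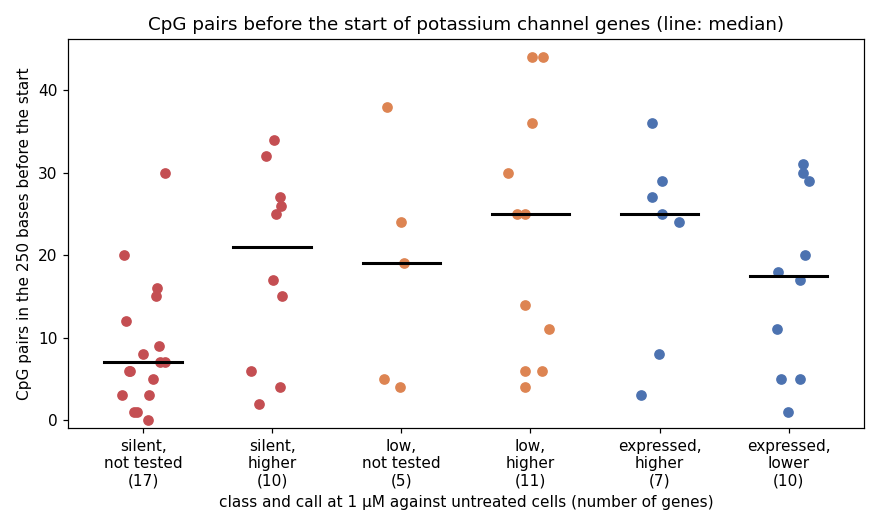
Number of CpG pairs in the 250 bases before the start (y axis) of the potassium channel genes with a promoter in the RefSeq table, by class in untreated cells and call at 1 µM against untreated cells (x axis, number of genes in brackets). Each point is 1 gene and each line a median. Genes not tested had too few counts, and some of them may have risen. Most silent genes that were not tested lie below 10 pairs and most silent genes that rose lie above 14.

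Of the auxiliary subunits 10 of 16 were tested, of which 3 rose and 2 fell with 1 µM (38.8% and 27.5% of all genes) and 3 rose and 0 fell with 0.15 µM (31.9% and 19.4%). At 1 µM these shares lie below those of all genes. Of the 10, 3 had passed only through treated groups. KCNAB2 encodes a cytoplasmic subunit of Shaker-type channels. It was at 10.5, 10.2 and 13.1 CPM in untreated libraries, 71.3, 65.6 and 67.0 at 0.15 µM, 56.5, 54.2 and 57.2 at 0.25 µM, 38.2, 44.3 and 46.1 at 0.5 µM and 51.3, 46.0 and 43.3 at 1 µM. All treated libraries lay above all untreated ones, with the highest at 0.15 µM. It rose 6.04-fold there (log2 fold change 2.59 ± 0.14, adjusted p = 4.25e-11) and was lower at 1 µM than at 0.15 µM (log2 fold change -0.54 ± 0.13, adjusted p = 0.00261). None of the pore genes of its Shaker-type partners was expressed in untreated cells.

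KCNAB1 and KCNAB3, of the same group, were at 2.09 ± 0.784 and 1.54 ± 0.186 CPM in untreated cells and at 3.12 ± 0.228 and 2.203 ± 0.0656 CPM at 1 µM, with no call at any dose. KCNIP2, a calcium-binding partner of A-type channels, was at 4.55 ± 0.902 and 6.14 ± 1.33 CPM, with no call either. KCNAB1 was called higher at 1 µM with library totals (log2 fold change 0.93), TMM from genes of at least 10 CPM (0.96) and 10 counts in every library (0.85), and KCNAB3 at 0.5 µM without 0.5 µM replicate 1 (1.01) and with TMM from genes of at least 10 CPM (1.12). KCNMB3, a subunit of the large-conductance calcium-activated channel, fell from 1.59, 2.09 and 1.60 CPM in untreated cells to 0.248, 0.345 and 0.0349 CPM at 1 µM (8.40-fold lower, log2 fold change -3.04 ± 0.64, adjusted p = 0.000363). At 0.15 µM it was at 3.06, 2.15 and 1.93 CPM and not called (adjusted p = 0.515), and it had the largest fall of the tested members from 0.15 to 1 µM (log2 fold change -3.48 ± 0.63, adjusted p = 0.000190). PIK3CA and a pseudogene overlap its exons. Exons of the opposite strand cover 37.96% of its exon bases and those of the same strand 9.64%. Reads there may be missing or belong to the other genes.

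KCNE3, a small membrane subunit that holds KCNQ1 channels open in epithelia, rose and fell as KCNN4 and KCNK1 did. It was at 3.11, 1.93 and 2.07 CPM in untreated libraries, 5.17, 4.77 and 3.58 at 0.15 µM and 1.31, 1.24 and 1.12 at 1 µM. It was called higher at 0.15 µM (log2 fold change 0.93 ± 0.36, adjusted p = 0.0411) and lower at 1 µM (log2 fold change -0.95 ± 0.38, adjusted p = 0.0364). Both calls were near the threshold. The first was lost without untreated replicate 2 or 3 (log2 fold change 0.80 and 0.84), 0.15 µM replicate 1 or 2 (0.82 and 0.88) or 1 µM replicate 1 or 3 (0.93 each). The second was lost without untreated replicate 1 (-0.71), 0.15 µM replicate 3 (-0.91) or 1 µM replicate 1, 2 or 3 (-1.003, -0.96 and -0.89). Scaled by library totals, the second was at -0.60 and not called. The fall from 0.15 to 1 µM was called under all alternatives (log2 fold change -1.88 ± 0.38, adjusted p = 0.000523). KCNRG, a soluble protein related to the assembly domain of voltage-gated channels, was low and not called at any dose.

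To see where along the doses the members changed, each dose was compared with the next, and 1 µM with 0.15 µM. From 0.15 to 0.25 µM, 3 members were higher (KCNA2, KCNJ10 and KCNN3) and 8 lower (among them KCNC4, KCNH2, KCNH4, KCNJ4, KCNK1, KCNK5 and KCNQ5), where 4.96% and 7.32% of all genes tested were. Without replicate 3 at 0.25 and 0.5 µM, 8 were higher, and without any 1 of 0.15 µM replicates 1, 2 and 3 and 0.25 µM replicates 2 and 3, 5 were lower. Scaled by library totals, 4 were higher and 5 lower. The calls of KCNC4, KCNK1 and KCNQ5 at this step were lost under 12, 11 and 7 alternatives. From 0.25 to 0.5 µM, 15 were higher and 12 lower (14.4% and 16.0% of all genes). The largest rises at this step were those of KCNJ2 (3.56 ± 1.03 in log2, not called without 0.5 µM replicate 1, at 2.72) and KCNK3 (2.90 ± 0.47), and the largest falls those of KCNMB3 (-3.16 ± 0.64) and KCNT2 (-2.56 ± 0.52). From 0.5 to 1 µM no member and no gene was called by edgeR (0.0% of all genes) or DESeq2. At an unadjusted p under 0.05 they gave 372 and 445 genes, and limma on log2(FPKM + 1) called 1 gene.

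Between 0.15 and 1 µM, 28 members were higher and 15 lower (21.5% and 23.1% of all genes), with a median log2 fold change of 0.64 against 0.02 for all genes tested. Untreated libraries take no part in this difference, and by class it ran apart. Of the 16 silent members tested, 14 were higher and 0 lower (median 2.14), where 44.4% of the silent protein-coding genes tested were higher and 4.28% lower. Of 26 low members, 8 were higher and 2 lower (30.5% and 10.9% of low protein-coding genes). Of 27 expressed members, 6 were higher and 13 lower (median -0.60), where 21.2% of the expressed protein-coding genes were higher and 34.6% lower. The silent and most low members had passed the filter through treated groups, which favours those that are high at some dose, and so had the protein-coding genes they are set beside.

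**Figure D5:**
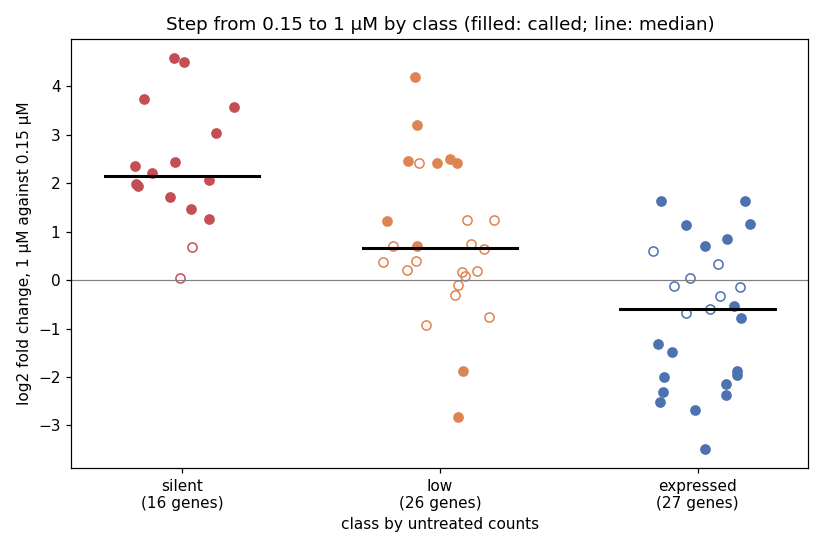
Log2 fold change from 0.15 to 1 µM martinostat (y axis) of the tested potassium channel genes by class in untreated cells (x axis). Each point is 1 gene, filled where the adjusted p was under 0.05, and each line is a class median. The silent class lies above 0 around 2.14 and the expressed class spreads on both sides with a median of -0.60.

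Rising first and then falling was found in 8 members, which were higher at 0.15 µM than in untreated cells and lower at 1 µM than at 0.15 µM (6.06% of all genes tested): KCNAB2, KCNC4, KCNE3, KCNJ4, KCNK1, KCNK6, KCNN4 and KCNT2. In 4 of them, KCNE3, KCNK1, KCNK6 and KCNN4, the level at 1 µM was also called below that of untreated cells (1.43% of all genes). The reverse, a fall at 0.15 µM and a rise above untreated cells at 1 µM, was found in 0 members and in 0.536% of all genes. In KCNH3, called higher between 0.15 and 1 µM (log2 fold change 0.70 ± 0.24, adjusted p = 0.0218), the call was lost without 0.15 µM replicate 2 (log2 fold change 0.62) or 1 µM replicate 3 (0.63).

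Neighbouring members did not always go together. KCNJ10 and KCNJ9 lie 11.4 kb apart on chromosome 1, KCNJ16 and KCNJ2 33.1 kb apart on chromosome 17 and KCNJ6 and KCNJ15 34.2 kb apart on chromosome 21, and both genes of each pair were higher at 1 µM. On chromosome 6, KCNK5 fell while KCNK17, 69.5 kb away, and KCNK16, next to KCNK17, had at most 6 counts in any library. On chromosome 1, KCNA2 was higher at 1 µM between KCNA10 and KCNA3, of which KCNA10 had counts in 1 library and KCNA3 in none.

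Not tested for want of counts were 27 members, with at most 20 counts in a library. The silent ones among them were KCNA1, KCNA3, KCNA4, KCNA5, KCNA6, KCNA10, KCNB2, KCNC2, KCNE2, KCNF1, KCNIP1, KCNJ1, KCNJ3, KCNJ18, KCNK4, KCNK16, KCNK17, KCNK18, KCNMB1 and KCNU1. The low ones were KCNE4, KCNE5, KCNIP4, KCNJ5, KCNK10, KCNV1 and KCNV2. KCNA3, the main voltage-gated channel of T cells, had 0 counts in all 15 libraries. KCNJ18 is a near-identical copy of KCNJ12, so the counts of both are uncertain. Close to the class limits, KCNK4 had 3 and KCNK10 4 counts in untreated cells, and KCNT2 was at 0.739 CPM where KCNT1 was at 1.03 CPM. Tested and not described one by one were the silent KCNA2, KCNA7, KCND2, KCNG1, KCNG4, KCNJ12, KCNK2, KCNK13, KCNQ1 and KCNQ3 and the low KCND3, KCNE1, KCNG2, KCNH1, KCNH7, KCNH8, KCNIP3, KCNJ4, KCNJ13, KCNJ15, KCNK7, KCNK9, KCNK15, KCNMA1, KCNMB2, KCNMB4, KCNRG, KCNS1, KCNS2 and KCNS3.

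Genes outside the symbol rule that work beside these channels were counted from lists of symbols. Of 12 partners and relatives, 4 were tested, and 3 were higher and 0 lower at 1 µM (38.8% and 27.5% of all genes). Among them the pacemaker channel HCN2 rose from 10.3 ± 0.663 to 53.9 ± 11.2 CPM (log2 fold change 2.39 ± 0.31, adjusted p = 4.97e-06). Of 16 potassium pumps and cotransporters, 14 were tested, and 9 were higher and 2 lower (38.8% and 27.5% of all genes). In the families compared, 12 of 13 tested voltage-gated sodium channel genes were higher and 1 lower, and 18 of 20 tested calcium channel genes rose and 0 fell with 1 µM (38.8% and 27.5% of all genes). Of these, 10 of 13 and 17 of 20 were silent or low in untreated cells, classes in which 96.7% and 68.5% of the protein-coding genes tested were higher. So were 2 of the 4 tested partners and relatives and 7 of the 14 tested pumps and cotransporters.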

How the data were processed

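Poly(A) RNA of 15 K562 libraries, 3 per group, was sequenced from a directional kit, with totals of 23755510 to 32805574 counts per library. Per the labels and the submitters' processing notes, the authors trimmed the reads with Trim Galore 0.6.10, aligned them to hg38 with HISAT2 2.2.1, handled alignments with SAMtools 1.21 and counted reads per GENCODE gene with featureCounts 1.5.3. The deposited raw counts per gene carried the analysis, and the deposited FPKM values, also made by the authors, only an alternative, because in 92 of 95 members their implied length was the genomic span (within 1%) and not the exon length. Of values from 1 to 10, 61.0% of all and 71.9% of the members' counts were even, so mates of a pair appear to be counted singly, and counting intervals are then too narrow. The strand setting is not given in the sources used here.

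Symbols, positions, exon lengths and biotypes came from GENCODE release 44, which named 99.7% of the genes. In 74 members the identifier version was the same. The counts were fitted in 1 edgeR 4.0.16 quasi-likelihood model (R 4.3.3, robust, group as the only term) over all 15 libraries, with TMM scaling (trimmed mean of M values), the default filterByExpr filter (minimum count 10) and Benjamini-Hochberg adjustment over the 23711 genes that passed. A call is an adjusted p under 0.05. The biological coefficient of variation was 0.228. CPM use the same scaling, and CPM per kilobase divide by the union of exons. Folds against a group at 0 use a floor of 3 counts per library. The fit was tested on simulated counts. The alternatives used limma 3.58.1 on log2(FPKM + 1) and DESeq2 1.42.0. The labels call the replicates biological, and the study describes its sequencing values as coming from independent experiments. No pair of libraries was a duplicate, and no column was left unmapped. Same-numbered libraries of 0.25 and 0.5 µM deviated together (r of 0.266 to 0.579), and those of the other pairs of groups did not (-0.0663 to 0.0918). With different numbers, replicate 2 at 0.25 µM and replicate 1 at 0.5 µM reached 0.236, and replicate 1 with replicate 2 0.094. Replicate 3 of either dose with replicates 1 and 2 of the other was at -0.414 to -0.299. Whether the numbers pair samples cannot be told from these values.

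The members and the gene lists were chosen with earlier results of these data known. The rule for named genes took 39 members, of which 35 are described and the others are not reported here: every expressed member, the 10 called higher at 1 µM with the highest mean CPM there, the 6 with the lowest log2 fold change among those called lower at 1 µM, those called in opposite directions at 0.15 and 1 µM and called between, the 4 highest and 4 lowest called changes between these doses, and the 4 silent members with the highest mean CPM at any dose. KCNK16, KCNK17, KCNA10 and KCNA3 were added after their values were seen. RefSeq promoters of GRCh38.p14 matched 72 members. They were not found for the others, among them KCNA1, KCNAB3, KCNB2, KCNE4, KCNG1, KCNH3, KCNH7, KCNJ11, KCNJ12, KCNJ9, KCNK12, KCNK15, KCNK9, KCNMB4, KCNQ1, KCNQ3, KCNS1, KCNS2, KCNU1 and KCNV1.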

Additional observations from a re-analysis of the deposited data

How the results depend on the processing

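Counts of members called were recomputed under 25 alternatives. Keeping only genes with at least 10 counts in every library, which leaves 27 members, gave 14, 15, 11 and 12 higher than untreated cells at the rising doses, 8 higher from 0.15 to 1 µM, 0 higher and 5 lower from 0.15 to 0.25 µM and 4 higher from 0.25 to 0.5 µM. This filter leaves out the silent members by construction. At 0.15 µM, limma on log2(FPKM + 1) gave 23 higher, and 1 member was lower with library totals and 2 with TMM from genes of at least 10 CPM. With the latter, 41 were higher at 0.15 µM, 46 higher and 4 lower with 0.25 µM, 45 and 10 with 0.5 µM, and 47 and 9 with 1 µM. From 0.15 to 0.25 µM, DESeq2 gave 10 higher, both of these scalings 5 lower, the relative log expression scaling 4 higher and 6 lower, and the fit without replicate 3 at 0.25 and 0.5 µM, which was chosen after seeing the data, 8 higher. Without any 1 of 0.15 µM replicates 1, 2 and 3 and 0.25 µM replicates 2 and 3, 5 were lower at this step. The other counts stayed within 1.5 times, and the cause of the differences was not tested.

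Leaving out 1 library in turn gave 31 to 37 higher and 3 to 4 lower with 0.15 µM, 39 to 44 and 5 to 6 with 0.25 µM, 41 to 42 and 10 to 13 with 0.5 µM, and 41 to 45 and 9 to 11 with 1 µM. From 0.15 to 1 µM it gave 22 to 29 higher and 15 lower in each fit, from 0.15 to 0.25 µM 2 to 4 and 5 to 9, and from 0.25 to 0.5 µM 10 to 15 and 11 to 12. With the replicate number as a block, 44 were higher and 12 lower at 1 µM, 26 higher from 0.15 to 1 µM and 14 higher from 0.25 to 0.5 µM, where a block fit of those 2 doses alone, chosen after seeing the data, gave 19 higher and 12 lower. In the 8 comparisons the block changed no call of a named gene other than that of KCNT2 at 1 µM.

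The calls of the named genes were counted for 0.15 and 1 µM against untreated cells and for 1 against 0.15 µM. In these comparisons, 58 of 75 called changes kept their call under every alternative and 17 lost it under at least 1, with no change of sign. Signs changed there only among changes that were not called. The other comparisons are not in this count, and further calls were lost in them, such as those of KCNC4 and KCNK1 from 0.15 to 0.25 µM. At 0.15 µM KCNJ14 was at 0.25 with library totals, 0.15 with TMM from genes of at least 10 CPM, 0.07 with 10 counts in every library and 0.056 with limma. Leaving out 1 library gave at 0.15 µM -0.22 to 0.033 for KCNJ14, -0.03 to 0.50 for KCNAB1, -2.82 to 3.56 for KCNJ2, -0.029 to 0.29 for KCNK12 and -0.025 to 0.20 for KCNK5. It gave -0.066 to 0.14 for KCNJ8 at 1 µM, and from 0.15 to 1 µM -0.11 to 0.31 for KCNAB3, -0.31 to 0.21 for KCNIP2 and -0.30 to 0.12 for KCNJ11. Silent members numbered 27 with a limit of 0 counts and 47 with 10 counts, and expressed members 33 with a limit of 0.5 CPM. Of the 27 members not tested, 26 could be fitted without the filter on low counts, and at 1 µM 4 of them were then called higher (KCNA1, KCNA4, KCNB2 and KCNF1, named after their values were seen) and 0 lower.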
